A study of Homo sapiens with 12 samples.

Results

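The mRNAs of 9 genes that make, break down or regulate polyamines were measured in MDA-MB-231 cells: ODC1, AMD1, SRM and SMS for synthesis, SAT1 and SMOX for breakdown, and OAZ1, OAZ2 and AZIN1 for control of ornithine decarboxylase. They were chosen by gene symbol from the known pathway, and all 9 were found among the 16384 genes listed and passed the filter on low counts, which 12645 genes passed. MDA-MB-231 is an established line from a triple-negative breast cancer, and every group carried the genotype label WT. The control group received DMSO, the solvent, and is called CON in the sample titles. A second group received 10 µmol/L CAR, which the series title gives as cardamonin, a plant chalcone. JQ1, written JQ-1 in the treatment labels, keeps BET bromodomain proteins from binding acetylated histones. One group received it at 25 µmol/L, and cells of the Combination group had the same doses of both agents. Each group had 3 libraries of stranded mRNA sequencing, and the labels used here give no time of treatment. No label ties the 3 libraries of a group to separate cultures, and the p-values therefore reflect a spread that may be technical.

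Polyamines are small cations that bind RNA, DNA and phospholipids, and proliferating cells need them for translation. Ornithine decarboxylase makes putrescine, and the synthases SRM and SMS add aminopropyl groups from decarboxylated S-adenosylmethionine to form spermidine and then spermine. SAT1 acetylates spermidine and spermine for export or oxidation, and SMOX oxidises spermine back to spermidine, releasing hydrogen peroxide. Antizymes bind ornithine decarboxylase and deliver it to the proteasome, and the antizyme inhibitor AZIN1 binds them in its place. ODC1 is a textbook target of MYC through E-boxes, and many of these genes are also controlled at translation and protein turnover, which mRNA counts do not measure.

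Promoter sequences are shown for ODC1 and SRM because both held the MYC-type E-box CACGTG and both rose with CAR yet moved in opposite directions with JQ1. Windows of 250 bases before a RefSeq start site (GRCh38.p14) were found for 7 of the 9 genes, 10 windows in all, not for SMOX and AZIN1. The windows are not all distinct, since windows 1 and 3 of AMD1 overlap almost fully. The E-box, a palindrome and so the same on both strands, occurred in 2 of the 10 windows, the second of ODC1's windows and that of SRM but not ODC1's first, against 6.34% of all 35116 promoter windows of that length. The ODC1 stretch lies on the minus strand at chr2:10448024-10448053, inside the gene in no GENCODE v29 exon, with the E-box starting 29 bases before an alternative start site. The SRM stretch lies on the minus strand at chr1:11060200-11060229, with the E-box starting 199 bases before the start site. Capitals mark the E-box, and both are written 5′ to 3′.
ODC1 E-box: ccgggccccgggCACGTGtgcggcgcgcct
SRM E-box: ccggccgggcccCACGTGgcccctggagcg

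The whole upstream stretches of SRM and SAT1 are shown because both genes changed with JQ1 in opposite directions, SRM down and SAT1 up; other genes of both arms went the other way (ODC1 and AMD1 up, SMOX down). SRM is read from the minus strand at chr1:11060025-11060268 and SAT1 from the plus strand at chrX:23782923-23783172, each ending at the base before the start of the annotated gene and overlapping no annotated exon. Capitals again mark the E-box. The SAT1 window held neither the E-box nor TGACNNNGC, the core of the antioxidant response element, searched on both strands. That core was in 0 of the 7 genes' windows and in 10.9% of all windows. These matches describe letters only, and binding of any factor was not measured.
SRM upstream: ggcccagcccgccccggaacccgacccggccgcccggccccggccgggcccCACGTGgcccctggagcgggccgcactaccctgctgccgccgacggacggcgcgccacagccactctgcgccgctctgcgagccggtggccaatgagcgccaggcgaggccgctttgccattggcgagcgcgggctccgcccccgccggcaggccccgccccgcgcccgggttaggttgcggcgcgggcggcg
SAT1 upstream: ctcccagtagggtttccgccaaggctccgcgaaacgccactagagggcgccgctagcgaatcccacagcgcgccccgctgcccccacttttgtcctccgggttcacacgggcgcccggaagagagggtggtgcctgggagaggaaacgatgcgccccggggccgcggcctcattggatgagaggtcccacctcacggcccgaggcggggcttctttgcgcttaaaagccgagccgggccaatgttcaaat

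Library totals ran from 17449715 to 19754456 counts. VIM, CD44, AXL and CAV1, markers of this mesenchymal line, were detected in all 12 libraries, and ESR1, PGR and CDH1 together had 0 to 29 counts per library. The first 4 summed to 99228 to 107600 counts in the DMSO and CAR libraries and to 32282 to 46965 in the JQ1 and Combination libraries. ERBB2 was detected in all 12 libraries, at 96.7 to 118 CPM in DMSO and CAR and 143 to 154 CPM in JQ1 and Combination. Of leukocyte markers, PTPRC had 0 to 1 counts and CD68 89.8 to 203 CPM, highest with CAR and lowest with JQ1. Endothelial markers summed to 5 to 23 counts. Among fibroblast markers, COL1A1 had 94 to 156 counts in the DMSO and CAR libraries and 41 to 64 in the JQ1 and Combination libraries. DCN had 0 to 3 and LUM 0 to 2 counts per library. The part of any of these markers in the results was not tested. DMSO library 3 stood apart: a chi-square comparison with each of its replicates gave 10.6 and 12.6 per degree of freedom, where all other replicate pairs gave 1.46 to 2.31, and its deviations followed transcript length across genes (Spearman's rho -0.739 over 6056 genes, a description). It was the highest DMSO library for 7 of the 9 genes, with transcripts of 1065 to 2653 bases, and the lowest for AMD1 and AZIN1, whose transcripts are 3438 and 4721 bases long. Combination library 1 held 1933 counts of 8 liver transcripts, led by ALB, against 4 to 16 in every other library. Calls of the 9 genes and MYC that changed when either library alone was left out are given with their values. In bulk RNA, fewer cells with an mRNA and less of it per cell cannot be told apart.

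ODC1, which encodes the rate-limiting enzyme of synthesis, rose in all 3 treated groups to much the same level. It lies at chr2:10439968-10448504 (GRCh38, GENCODE v29), minus strand. Levels are CPM, the count divided by the library total after TMM scaling. ODC1 stood at 148, 158 and 170 CPM in the DMSO libraries and at 299, 306 and 298 CPM with CAR. It stood at 282, 285 and 275 CPM with JQ1 and at 274, 278 and 279 CPM in Combination. Every treated library lay above every DMSO library. Against DMSO the log2 fold change was 0.93 ± 0.04 (SE, n = 3 per group) with CAR, a 1.90-fold rise with an edgeR adjusted p of 1.88e-13. It was 0.83 ± 0.04 with JQ1 (1.77-fold, edgeR adjusted p = 4.92e-14) and 0.81 ± 0.04 in Combination (1.75-fold, edgeR adjusted p = 6.37e-14). Combination did not differ detectably from JQ1 alone, at -0.02 with a 95% interval of -0.10 to 0.07 (edgeR adjusted p = 0.761). It lay below CAR alone by a small amount, -0.12 ± 0.04 (edgeR adjusted p = 0.0122). With scaling by total counts, the difference between Combination and JQ1 was -0.10 and passed the threshold (edgeR adjusted p = 0.0429), and that between Combination and CAR was -0.26 (6.84e-06). So the order was DMSO, then Combination and JQ1 together, then CAR, and CAR against JQ1 was not tested.

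AMD1 encodes adenosylmethionine decarboxylase, which supplies the aminopropyl donor, at chr6:110874770-110895713, plus strand. Its level was 97.4 ± 1.77 CPM in DMSO, 119 ± 6.24 with JQ1, 136 ± 4.90 with CAR and 152 ± 3.74 in Combination (SD, n = 3), and no 2 groups overlapped. AMD1 rose by 0.48 ± 0.04 on the log2 scale with CAR (edgeR adjusted p = 8.36e-09), by 0.29 ± 0.04 with JQ1 (2.91e-06) and by 0.64 ± 0.04 in Combination (6.29e-12). Combination was also above JQ1 alone by 0.35 (edgeR adjusted p = 7.02e-07) and above CAR alone by 0.17 (0.00114). With total-count scaling the last difference was 0.02 (edgeR adjusted p = 0.604) and the change with JQ1 was 0.17 (0.00132).

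SRM, the spermidine synthase gene, moved in opposite directions with the single agents, up with CAR and down with JQ1. It lies at chr1:11054584-11060024, minus strand. It stood at 70.1, 72.7 and 86.7 CPM in DMSO, the last being library 3, and at 116, 117 and 113 CPM with CAR. With JQ1 it stood at 47.5, 47.8 and 47.2 CPM, and in Combination at 51.7, 54.9 and 55.7 CPM. The 4 groups did not overlap. SRM rose by 0.59 ± 0.06 with CAR (1.51-fold, edgeR adjusted p = 2.42e-08). It changed by -0.69 ± 0.06 with JQ1 (1.61-fold lower, edgeR adjusted p = 1.27e-09) and by -0.50 ± 0.06 in Combination (1.61e-07). Combination lay 0.19 above JQ1 alone (edgeR adjusted p = 0.0204). That small difference was not called without JQ1 library 1 (0.0514) or 3 (0.0547), without Combination library 2 (0.0631) or 3 (0.0754), or with total-count scaling (0.10, edgeR adjusted p = 0.219).

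SMS, the spermine synthase gene, fell with JQ1 and in Combination and changed little with CAR. It lies at chrX:21940573-21994835, plus strand. The DMSO libraries held 131 to 151 CPM and the CAR libraries 151 to 152 CPM, so these groups overlapped. The JQ1 libraries held 75.4 to 78.3 CPM and the Combination libraries 81.4 to 84.3 CPM, below all others. SMS changed by -0.86 ± 0.05 with JQ1 (1.82-fold lower, edgeR adjusted p = 1.46e-13) and by -0.75 ± 0.05 in Combination (1.46e-12). With CAR it passed the threshold at 0.12 ± 0.04 (edgeR adjusted p = 0.0249). That call was lost with upper-quartile scaling (0.09, edgeR adjusted p = 0.111), total-count scaling (0.06, 0.302) and a fit to those groups alone (0.13, 0.0624). It was also lost without DMSO library 1 (edgeR adjusted p = 0.11) or 2 (0.141) and without CAR library 1 (0.061) or 2 (0.0562), and without DMSO library 3 the change was 0.19 (7.1e-06). The Combination value was 0.11 above JQ1 and did not pass the threshold (edgeR adjusted p = 0.0636), though the libraries did not overlap.

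**Figure D1:**
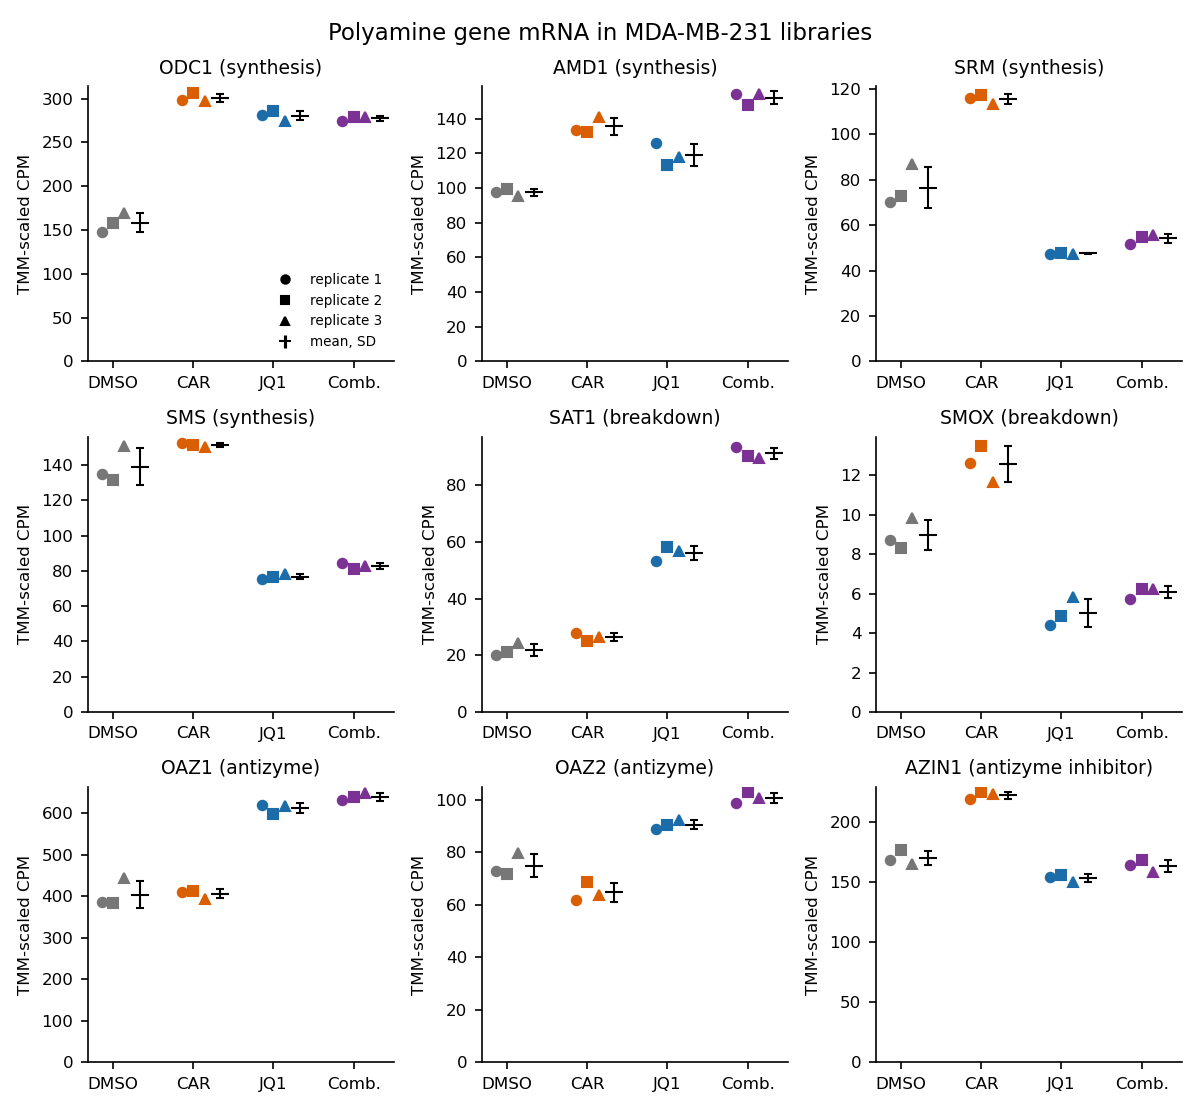
TMM-scaled CPM of the 9 genes (vertical axes, each from 0) in the 12 libraries by group, with replicates as symbols and the mean and SD as black bars. ODC1 is 1.75- to 1.90-fold above DMSO in every treated group, and SRM, SMS, SMOX and AZIN1 are lowest with JQ1. SAT1 climbs from 21.9 CPM in DMSO to 91.2 CPM in Combination.

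SAT1, the rate-limiting gene of breakdown, had the widest range in fold of the 9 between groups. It lies on the X chromosome at chrX:23783173-23786226, plus strand. It stood at 20.2, 21.2 and 24.3 CPM in DMSO and at 27.7, 25.2 and 26.5 CPM with CAR. With JQ1 it stood at 53.3, 58.2 and 56.7 CPM, and in Combination at 93.5, 90.4 and 89.7 CPM. The 4 groups did not overlap and ran in the order DMSO, CAR, JQ1, Combination. SAT1 rose by 0.27 ± 0.07 with CAR (1.21-fold, edgeR adjusted p = 0.00182), by 1.35 ± 0.06 with JQ1 (2.55-fold, 8.63e-15) and by 2.06 ± 0.06 in Combination (4.16-fold, 2.57e-18). Combination lay 0.70 ± 0.05 above JQ1 alone (1.63-fold, edgeR adjusted p = 7.9e-10) and 1.78 above CAR alone (3.44-fold, 1.72e-17).

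SMOX, the spermine oxidase gene, moved against SAT1 in the JQ1 groups. It stood at 8.73, 8.34 and 9.83 CPM in DMSO and 12.6, 13.5 and 11.7 CPM with CAR. It fell to 4.43, 4.86 and 5.82 CPM with JQ1, and stood at 5.73, 6.22 and 6.26 CPM in Combination. The JQ1 and Combination libraries overlapped each other but no library of DMSO or CAR. SMOX rose by 0.49 ± 0.10 with CAR (1.40-fold, edgeR adjusted p = 0.000165) and changed by -0.84 ± 0.11 with JQ1 (1.79-fold lower, 5.52e-07) and -0.56 ± 0.11 in Combination (1.48-fold lower, 6.91e-05). Combination against JQ1 was 0.27 ± 0.12 and not called (edgeR adjusted p = 0.0707), but it was called without JQ1 library 3 (0.39, 0.0213). Per kilobase of transcript SMOX was the least abundant of the 9 mRNAs in DMSO, at 4.02 CPM per kilobase against 20.6 for SAT1. SMOX lies at chr20:4120980-4187747, plus strand.

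OAZ1 and OAZ2 encode antizymes, of which OAZ1 is the more abundant form in most tissues. They lie at chr19:2269509-2273490, plus strand, and chr15:64687573-64703281, minus strand. Per kilobase OAZ1 was the most abundant of the 9 mRNAs in DMSO, at 352 CPM per kilobase, against 38.7 for OAZ2. OAZ1 stood at 404 ± 33.5 CPM in DMSO, 406 ± 10.2 with CAR, 612 ± 11.3 with JQ1 and 639 ± 9.27 in Combination (SD, n = 3). The JQ1 and Combination libraries lay above all others. OAZ1 rose by 0.60 ± 0.04 with JQ1 (1.51-fold, edgeR adjusted p = 3.69e-11) and by 0.66 ± 0.04 in Combination (5.99e-12). With CAR its change was 0.01, with a 95% interval of -0.09 to 0.10 (edgeR adjusted p = 0.916). Without DMSO library 3, the highest DMSO library at 443 CPM, the CAR change was 0.08 and called (edgeR adjusted p = 0.0117).

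OAZ2 went down with CAR and up with JQ1, against the directions of SRM, SMOX and AZIN1. It stood at 74.8 ± 4.40 CPM in DMSO, 64.8 ± 3.66 with CAR, 90.4 ± 1.74 with JQ1 and 101 ± 1.92 in Combination (SD, n = 3), and no groups overlapped. Its log2 changes were -0.21 ± 0.05 with CAR (edgeR adjusted p = 0.0012), 0.27 ± 0.05 with JQ1 (2.38e-05) and 0.43 ± 0.05 in Combination (3.4e-08). Combination lay 0.16 above JQ1 alone (edgeR adjusted p = 0.00942), which total-count scaling reduced to 0.07 (0.242). That scaling also gave smaller rises, still called, of 0.15 with JQ1 (edgeR adjusted p = 0.00654) and 0.22 in Combination (0.000247). Annotated exons of other genes overlap OAZ1 (JSRP1, 236 bases on the opposite strand, and AC005258.1, 220 bases on the same strand) and OAZ2 (an antisense gene, 554 bases), and whether counting used strand is not given in the sources used here.

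AZIN1, whose protein frees ornithine decarboxylase from antizyme, rose with CAR and fell slightly with JQ1. It stood at 168, 176 and 165 CPM in DMSO, 219, 225 and 223 CPM with CAR, 154, 156 and 150 CPM with JQ1 and 164, 168 and 158 CPM in Combination. The CAR libraries were above and the JQ1 libraries below all DMSO libraries, and Combination overlapped DMSO. Its log2 changes were 0.39 ± 0.04 with CAR (1.31-fold, edgeR adjusted p = 2.24e-08), -0.15 ± 0.04 with JQ1 (0.00134) and -0.06 ± 0.04 in Combination, which was not called (0.181). The Combination change became -0.13 with upper-quartile scaling (edgeR adjusted p = 0.00335) and -0.26 with total-count scaling (1.1e-06), both called, and the JQ1 change became -0.27 with the latter (9.43e-07). Combination against JQ1 was 0.09 and not called (edgeR adjusted p = 0.0527), but it was called without Combination library 3 (0.11, 0.0372). Exons of AZIN1-AS1, on the opposite strand, overlap 344 bases of AZIN1.

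With CAR, 7 of the 9 genes rose and OAZ2 fell, with OAZ1 not called; over all genes tested 57.3% were called, 27.3% higher and 30.1% lower. Groups did not overlap for 7 of the 9, against 59.9% of all genes. The median log2 change was 0.39 over the 9 genes and -0.02 over all genes. The SMS call, which several settings ended, is 1 of the 7. Without DMSO library 3, all 9 were called with CAR, 8 of them higher, where 7827 of all genes were called. With JQ1, all 9 genes were called, 5 higher (ODC1, AMD1, SAT1, OAZ1, OAZ2) and 4 lower (SRM, SMS, SMOX, AZIN1), where 83.7% of all genes were called, 41.5% higher and 42.2% lower, and 9 of 9 did not overlap against 83.2%. That share is near the background of a treatment that moved most genes, and the median was 0.27 over the 9 and -0.01 over all genes. In Combination against DMSO, 5 rose, 3 fell (SRM, SMS, SMOX) and AZIN1 was not called, where 85.4% of all genes were called, 42.6% higher and 42.8% lower. Groups did not overlap for 8 of the 9, against 84.8% of all genes. Against JQ1 alone, Combination was higher for 4 genes (AMD1, SRM, SAT1, OAZ2) and lower for 0, where 51.9% of all genes were called, 26.0% higher and 25.9% lower. Its libraries did not overlap those of JQ1 for 7 of the 9, against 62.3% of all genes. A fit to those groups alone added SMS, OAZ1 and AZIN1 for 7 higher, and leaving out both DMSO library 3 and Combination library 1 gave 8, with SMOX too. The 51.9% belongs to the main fit. Shares of all genes called under these other settings are not given here, so the counts of 7 and 8 have no background beside them. Against CAR alone, Combination was higher for 4 and lower for 5, where 85.4% of all genes were called, 42.4% higher and 43.0% lower, and 9 of 9 did not overlap against 87.4%. The comparisons against DMSO share the DMSO libraries, and those with Combination share its libraries.

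**Figure D2:**
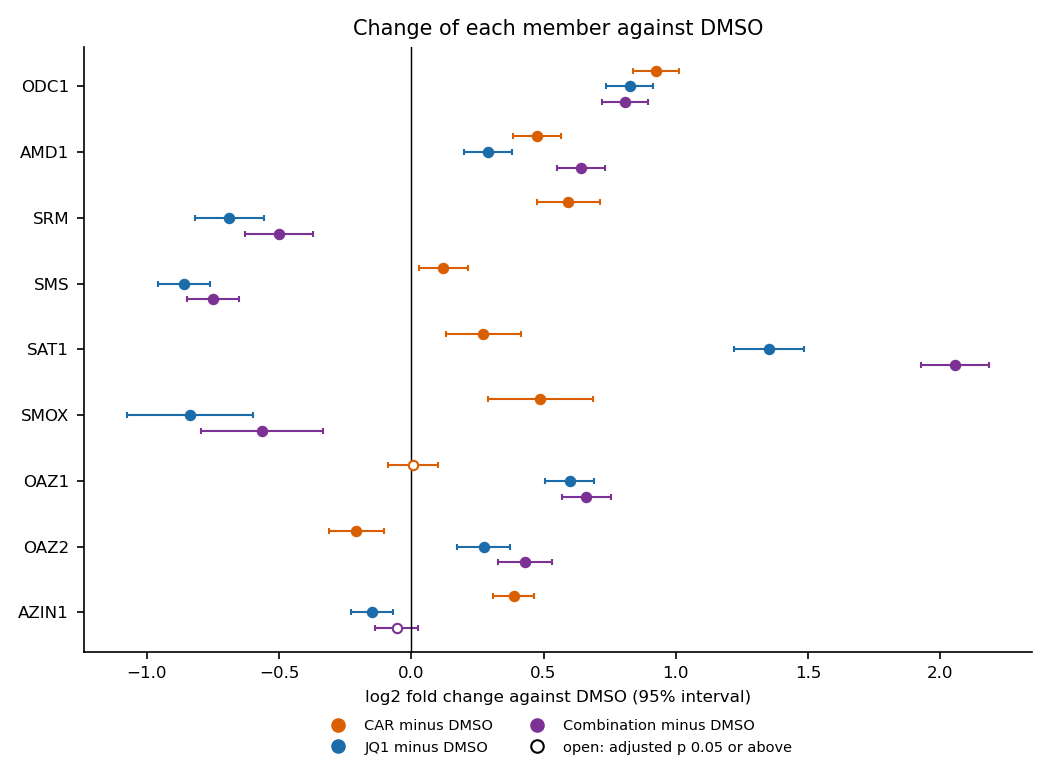
Log2 fold change against DMSO (horizontal axis) of each gene with CAR, JQ1 and Combination, with 95% intervals; open circles did not reach an adjusted p of 0.05. SRM, SMOX and AZIN1 lie right of 0 with CAR and left of it in both JQ1 groups, with the AZIN1 circle open in Combination. OAZ2 lies the other way, and SAT1 reaches 2.06 in Combination.

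The interaction asks whether the effect of CAR differed between cells with and without JQ1. It was called for 5 of the 9 genes, 2 positive and 3 negative, where 38.3% of all genes were called, 20.1% positive and 18.2% negative. ODC1 had the largest value, -0.94 ± 0.06 (edgeR adjusted p = 2.66e-10): the single changes sum to 1.75, but Combination measured 0.81. CAR raised ODC1 by 0.93 alone and changed it by -0.02 on top of JQ1. SAT1 went the other way, at 0.43 ± 0.09 (edgeR adjusted p = 0.000557), with single changes that sum to 1.62 against 2.06 measured. SRM was at -0.41 ± 0.09 (edgeR adjusted p = 0.000927) and AZIN1 at -0.30 ± 0.05 (0.000208), and their CAR changes were 0.59 and 0.39 alone and 0.19 and 0.09 on top of JQ1. OAZ2 was at 0.36 ± 0.07 (edgeR adjusted p = 0.00029): CAR lowered it alone and it was higher in Combination than with JQ1. For AMD1 (-0.12), SMS (-0.01), SMOX (-0.21) and OAZ1 (0.06) no interaction was called, with edgeR adjusted p from 0.118 to 0.913. The SMOX value moved to -0.10 without JQ1 library 3 (edgeR adjusted p = 0.655). The 5 calls held in each alternative setting tried.

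**Figure D3:**
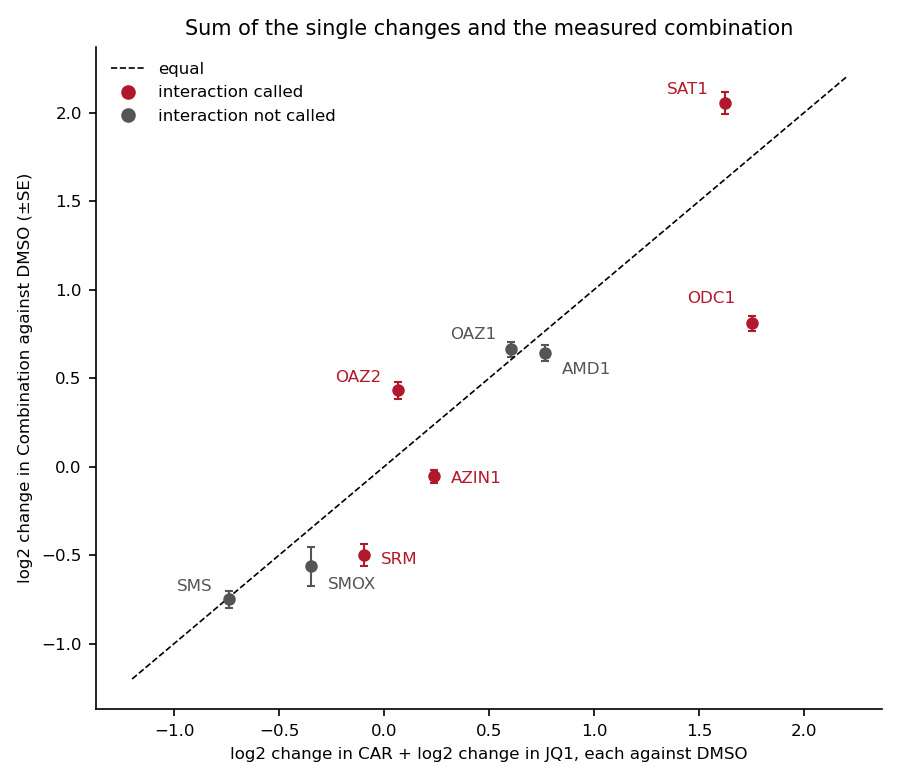
The sum of the log2 changes with CAR and with JQ1 (horizontal axis) against the log2 change measured in Combination (vertical axis, with its SE), for the 9 genes; the dashed line marks equality and red marks a called interaction. ODC1 lies below the line, at 1.75 against 0.81, and SAT1 above it, at 1.62 against 2.06.

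The ratio of SAT1 to ODC1 counts within a library sets a breakdown gene beside a synthesis gene and does not depend on scaling. The ratio does not stand for the whole arms, since SMOX, SRM and SMS fell with JQ1 and in Combination while SAT1 and ODC1 rose. The SAT1 to ODC1 ratio was 0.137, 0.135 and 0.143 in DMSO, 0.0929, 0.0821 and 0.0892 with CAR, 0.189, 0.204 and 0.206 with JQ1, and 0.341, 0.325 and 0.321 in Combination. The groups did not overlap: CAR lay below DMSO, and JQ1 and Combination above it. The mean log2 ratio was -2.85, -3.51, -2.32 and -1.60 in that order, and this is a description of counts, not of enzyme activity. SRM counts per SMS count were 0.549 ± 0.0279 in DMSO, 0.762 ± 0.0113 with CAR, 0.619 ± 0.0144 with JQ1 and 0.653 ± 0.0352 in Combination (SD, n = 3), so the balance of the synthases shifted most in the CAR group.

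**Figure D4:**
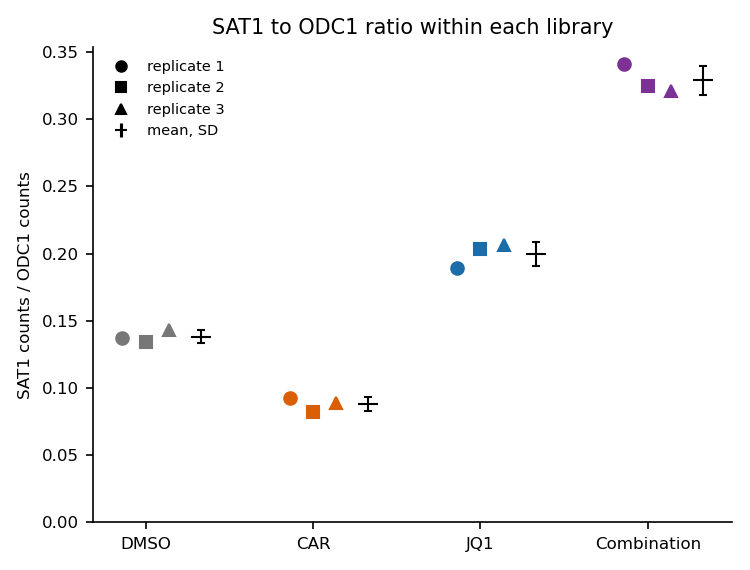
SAT1 counts divided by ODC1 counts (vertical axis, from 0) in each of the 12 libraries by group, with the mean and SD as black bars. The ratio is lowest with CAR, at 0.0881, and highest in Combination, at 0.329.

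MYC, which encodes a known activator of ODC1 transcription, stood at 122 ± 0.227 CPM in DMSO, 166 ± 2.06 with CAR, 126 ± 2.30 with JQ1 and 157 ± 5.01 in Combination (SD, n = 3). It rose by 0.45 ± 0.04 with CAR (edgeR adjusted p = 1.74e-09) and by 0.37 ± 0.04 in Combination (5.85e-09), and its change with JQ1 was 0.05 (0.198). Combination lay -0.08 from CAR alone (edgeR adjusted p = 0.0495), a call lost in 9 of the alternatives, among them leaving out any CAR library (0.0506 to 0.114), Combination library 3 (0.0911) or Combination library 1, with its liver transcripts (-0.06, 0.202). With total-count scaling the Combination change against DMSO was 0.16 (edgeR adjusted p = 0.000377) and the difference from CAR -0.22 (7.15e-06). The MYC interaction was -0.13 and not called (edgeR adjusted p = 0.0523). It was called without DMSO library 3 (-0.13, edgeR adjusted p = 0.0192), without Combination library 2 (-0.16, 0.0377) and with total-count scaling (-0.15, 0.0219). The sign of the JQ1 value turned with upper-quartile scaling (-0.00752) and total-count scaling (-0.0670). ODC1 stood at 301 CPM with CAR, 281 with JQ1 and 277 in Combination. With total-count scaling, ODC1 in Combination lay -0.26 from CAR and -0.10 from JQ1. Whether MYC took part in the ODC1 changes was not tested. Whether MYC protein moved with any of these values was not tested.

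Of 27 further genes of the pathway, 24 passed the filter. With CAR 13 rose and 7 fell, with JQ1 13 rose and 9 fell, and in Combination against DMSO 10 rose and 10 fell. Against JQ1 alone, Combination was higher for 11 and lower for 4, and against CAR alone higher for 12 and lower for 10. Over all genes tested, 57.3% were called with CAR (27.3% higher, 30.1% lower), 83.7% with JQ1 and 85.4% in Combination against DMSO. The share was 51.9% for Combination against JQ1 and 85.4% for Combination against CAR. The counts with JQ1, and in Combination against DMSO or CAR, are near those shares. The interaction was called for 8, 3 positive and 5 negative, where 38.3% of all genes were called.

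Transporters showed some of the largest values among them. SLC3A2, the heavy chain shared by several amino acid exchangers and linked to polyamine export, rose from 223 CPM in DMSO to 431 with CAR, 516 with JQ1 and 976 in Combination, where the change was 2.13 ± 0.04 (4.37-fold, edgeR adjusted p = 1.38e-21). Its interaction was -0.03 (edgeR adjusted p = 0.672), with a 95% interval of -0.14 to 0.08. SLC18B1, a vesicular polyamine transporter, had 9.85 CPM in DMSO, 8.65 with CAR, 2.35 with JQ1 and 2.17 in Combination, a change of -2.06 with JQ1 (edgeR adjusted p = 8.2e-12). SLC22A3, an organic cation transporter, had 4.72, 3.63, 2.15 and 2.17 CPM in the same order and changed by -1.13 with JQ1 (1.41e-07).

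Of the 5 tested genes of arginine and ornithine supply, 2 rose and 3 fell with JQ1. Over all genes tested, 41.5% were called higher and 42.2% lower with JQ1, so this count is near the background. SLC7A1, the main cationic amino acid importer, had 405 CPM in DMSO, 534 with CAR, 157 with JQ1 and 205 in Combination, a change of -1.37 with JQ1 (edgeR adjusted p = 4.45e-14). AGMAT, annotated as agmatinase, had 5.92, 12.2, 1.07 and 1.25 CPM in that order, a rise of 1.04 with CAR (1.33e-07) and a change of -2.46 with JQ1 (3.76e-11). OAT, ornithine aminotransferase, ran against them at 200, 167, 280 and 337 CPM, with an interaction of 0.52 (1.9e-07).

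In the salvage of methylthioadenosine, the by-product of SRM and SMS, enzymes of 1 chain moved in different directions with JQ1. MRI1 rose from 18.4 to 38.0 CPM and ADI1 from 149 to 522 CPM (log2 change 1.81 ± 0.05, edgeR adjusted p = 9.85e-17). ENOPH1, which acts before ADI1, fell from 69.1 to 23.9 CPM (-1.53 ± 0.06, edgeR adjusted p = 1.41e-16). MTAP, which encodes the first enzyme of that salvage, had 0 counts in 11 libraries, where 0 counts allow up to 0.147 to 0.176 CPM, and 2 counts in Combination library 1. ARG1, a liver arginase, likewise had 0 counts in those 11 libraries and 12 in Combination library 1, the one with liver transcripts.

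SAT2, a paralogue of SAT1, rose with JQ1 from 27.2 to 55.5 CPM (1.02 ± 0.07, edgeR adjusted p = 7.14e-12) and stood at 65.3 CPM in Combination. AZIN2, a second antizyme inhibitor, moved against AZIN1: it had 11.7 CPM in DMSO, 7.21 with CAR, 22.0 with JQ1 and 23.9 in Combination, an interaction of 0.83 (edgeR adjusted p = 1.21e-05). DOHH, which completes the hypusine of eIF5A made from spermidine, had 13.4 CPM in DMSO, 18.7 with CAR, 5.94 with JQ1 and 7.56 in Combination, a change of -1.18 with JQ1 (1.67e-09).

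**Figure D5:**
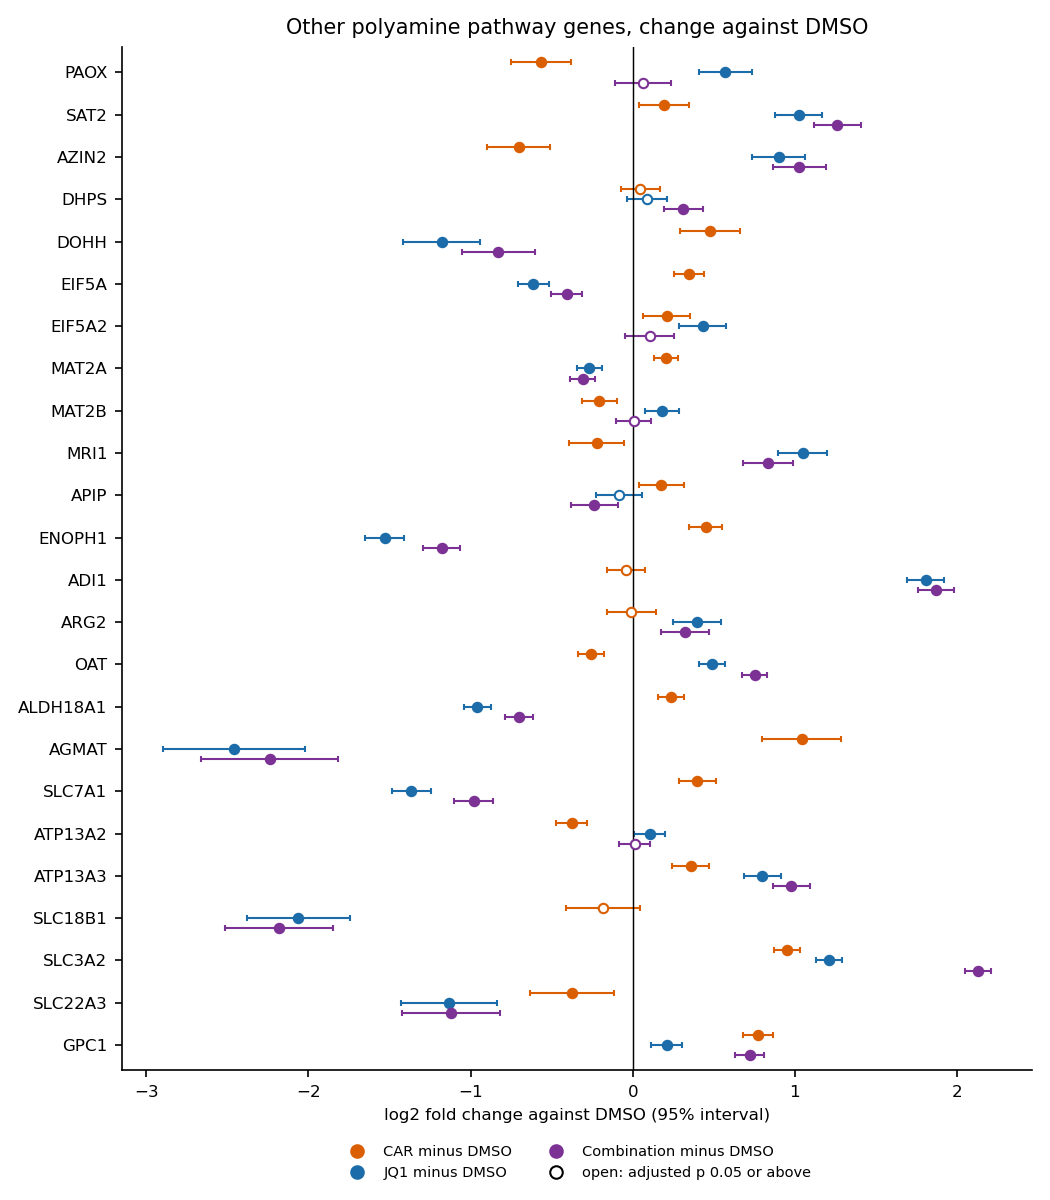
Log2 fold change against DMSO (horizontal axis) of the 24 further pathway genes tested, with CAR, JQ1 and Combination as colours, 95% intervals as bars and open circles where the adjusted p was 0.05 or above. SLC3A2 lies furthest right, at 2.13 in Combination, and AGMAT furthest left, at -2.46 with JQ1.

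Patterns were compared with 10173 genes of at least 5 CPM on average. Names patterned like unnamed loci, clones, open reading frames, numbered FAM genes or antisense genes were left out. Among those kept, the patterns most like SAT1 over the 12 libraries were those of RNF227, PEX16, SCAMP4, CIAO1 and ATP6V0C, with Pearson's r of 0.997 to 0.995. For ODC1 they were APRT, PKP4, SSR1, PPAT and IMPDH2 (0.967 to 0.960), and for SMOX they were HINT1, EIF5A, THOP1, DDX31 and AGTRAP (0.989 to 0.986). EIF5A carries the hypusine that spermidine supplies and stood at 762 CPM in DMSO, 970 with CAR, 498 with JQ1 and 574 in Combination. The libraries share their groups, so high r values describe the 4 group levels and carry no test.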

How the data were processed

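The authors deposited raw whole-number counts for each gene symbol in 12 tables, 1 per stranded mRNA library. Trimmomatic, HISAT2, HTSeq and hg38 are listed, per the submitters' processing notes, without versions; the sources used here give neither the annotation nor the strand setting. Per the labels' protocols, RNA was isolated with RNAiso Plus and checked for integrity.

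The edgeR package (4.0.16, under R 4.3.3) was run on the counts. Its filterByExpr step (minimum count 10, minimum total 15) left 12645 of 16384 genes. TMM factors ran from 0.921 to 1.08. A robust quasi-likelihood model with 1 coefficient per group was fitted to all 12 libraries, with 8 residual degrees of freedom, and a call needs an adjusted p under 0.05 (Benjamini-Hochberg over all genes tested). The SE uses the moderated quasi-likelihood variance. Patterns used log2 CPM with a prior count of 2. Lengths are those of GENCODE v29 transcripts (15944 of 16384 symbols matched). The fit was also run on simulated counts, drawn with a common dispersion and without the length trend of DMSO library 3. The outcome is not reported here. Alternatives were DESeq2 1.42.0, other scalings, no filter, a fit per comparison, a replicate block and leaving out libraries. Of the further pathway genes, those called with an absolute log2 change of at least 1 in some comparison were given values. The genes and lists were chosen with earlier results of these data known. Counting intervals and floors (3 counts) cover counting error only.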

Additional observations from a re-analysis of the deposited data

Results flagged for a closer look

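For 5 genes the effect of CAR differed between cells with and without JQ1, by the test of the interaction in the edgeR fit. The effect with JQ1 minus the effect without it was -0.94 for ODC1, -0.41 for SRM and -0.30 for AZIN1, so the CAR change of these mRNAs was lower with JQ1 than without it. It was 0.43 for SAT1 and 0.36 for OAZ2, and for both the Combination change lay above the sum of the single changes.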

How the results depend on the processing

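The 9 genes gave 747 values under the alternative settings, of which 704 kept their direction and side of the threshold, 14 lost a call, 15 gained one and 14 changed sign, all near 0. OAZ1 with CAR changed sign with upper-quartile scaling (-0.0262), total-count scaling (-0.0587) and DESeq2 (-0.000102), and ran from -0.0310 to 0.0795 (without DMSO library 3) when 1 library was left out; single values were -0.0275 and -0.0310 without DMSO library 1 or 2 and -0.00445 without CAR library 2. OAZ1 in Combination against JQ1 was -0.0246 with total-count scaling. The OAZ1 interaction ran from -0.0150 (without DMSO library 3) to 0.0933 with 1 library left out, and was -0.00447 without DMSO library 3 and Combination library 1 together. The SMS interaction was 0.00967 with upper-quartile scaling and ran from -0.0748 to 0.0286 with 1 library left out (0.0125, 0.0286, 0.00271 and 0.000358 without DMSO 1, DMSO 2, JQ1 3 and Combination 2). MYC with JQ1 was -0.00752 with upper-quartile and -0.0670 with total-count scaling. The causes were not tested.

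The count of the 9 genes called in Combination against JQ1 was 4 and ran from 3 to 4 with 1 library left out. It became 7 in a fit to those groups alone and 8 without DMSO library 3 and Combination library 1, a setting chosen after seeing the data. The shares of all genes called where the count was 7 or 8 are not given here, so those counts have no background beside them. Total-count scaling moved the median of all genes by -0.119 with JQ1, -0.207 in Combination and -0.142 in Combination against CAR. It took the share of higher calls from 47.6% to 35.7% with CAR, from 49.9% to 39.3% in Combination and from 50.1% to 32.9% in Combination against JQ1.

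Same-numbered libraries of different groups had deviations correlated at -0.309 to 0.26, over 0.1 in 3 of 18 pairs. Pairs with different numbers gave -0.282 to 0.303, over 0.1 in 7 of 36. These values show no pairing by number, but with 3 libraries per group they cannot exclude one. With the replicate block, 58 of 60 tests of the 9 genes and MYC kept their call. AZIN1 in Combination against JQ1 was gained (0.09, edgeR adjusted p = 0.0494), giving 5 genes called in place of 4, and MYC in Combination against CAR, which other settings also ended, was lost (-0.08, 0.0614).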
